A study of Mus musculus with 6 samples.

Results

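RNA-seq of senescent mouse fibroblasts was examined here for 10 genes of the immediate early response, including its regulator *Srf*. These are the transcription factor genes *Egr1*, *Egr2* and *Egr3*, the nuclear receptor genes *Nr4a1*, *Nr4a2* and *Nr4a3*, the genes *Ier2*, *Ier3* and *Ier5*, and *Srf* itself. Their rows were found by gene name among the 43346 genes in the table of counts, and the genes had been picked with earlier results of these data known. Each name matched 1 row, and all 10 genes had enough reads for a test. The cells were mouse adult fibroblasts (MAFs), primary cells grown at 3% oxygen from ear tissue of C57BL6/J mice, all of them adult females. The 3 senescent samples had been irradiated with 20 Gy of X-rays and cultured for 21 more days, and the 3 control samples were sham irradiated. Both groups then received 100 nM dexamethasone, a glucocorticoid used to synchronize cellular clocks, for 2 hours, and RNA was collected 12 hours later, so every value below is from a single time point after the same hormone pulse. None of the groups was sampled without dexamethasone. The labels number the replicates and do not say whether they came from separate mice or cultures, so p-values measure only the spread between these samples, which may be technical.

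Immediate early genes are transcribed within minutes of a stimulus such as serum, a growth factor or stress, before any new protein has to be made, and their RNA is usually short lived. Signals through the ERK kinases reach many of them by way of SRF, which binds a DNA sequence called the CArG box together with ETS-domain partners or with actin-controlled MRTF coactivators. Signals through cyclic AMP reach them by way of CREB. The EGR proteins are zinc-finger transcription factors, the NR4A proteins are nuclear receptors whose activity depends mainly on how much of them is made, and the IER proteins are short-lived regulators of growth and survival.

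Of the 10 genes, 9 were higher in senescent than in control cells and none was lower (edgeR quasi-likelihood fit, adjusted p below 0.05 after Benjamini-Hochberg correction over 17589 tested genes). Among all tested genes, 36.2% were called higher and 34.1% lower, 70.3% in all. The median log2 fold change of the 10 genes was 1.26, against 0.009 over all tested genes. *Ier2* was the gene that did not pass. The threshold in the study's methods, an unadjusted p under 0.05 with more than a doubling or halving, was passed by 7 of the 10 genes, all of them higher, and by 17.8% of all tested genes in that direction and 30.1% in either. In 9 of the 10 genes the lowest senescent library lay above the highest control library, which was also so for 38.4% of all tested genes, while 37% of them were apart in the opposite direction and 75.3% in either. The largest change was in *Nr4a3*, and the smallest of those called were in *Srf* and *Ier3*. In RNA from whole cultures, more cells with a transcript and more transcript per cell cannot be told apart.

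**Figure D1:**
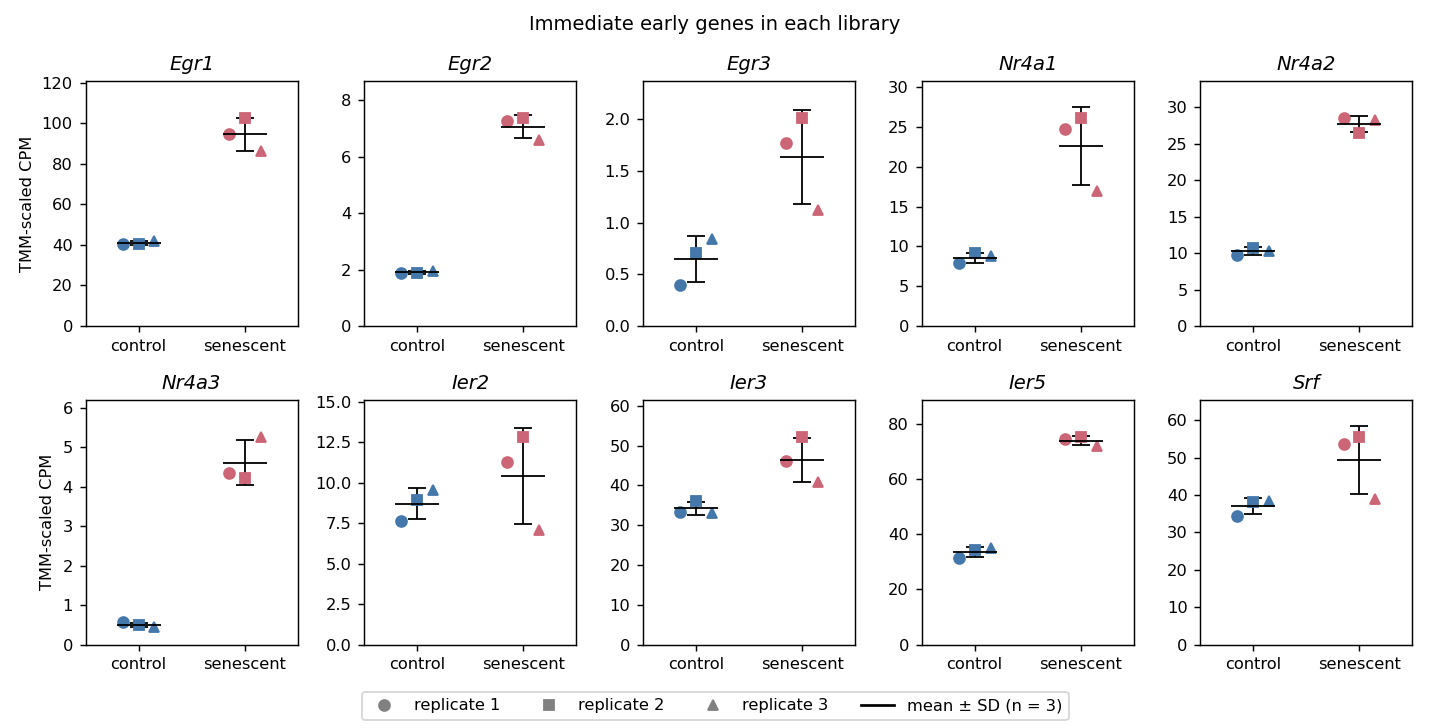
Level of each gene in each library, in TMM-scaled CPM (read counts scaled to the size of each library), with a linear axis from 0 in every panel. Symbols give the replicate number and the bars the mean and SD of 3 libraries per group. The senescent values lie above all control values in 9 genes, and in *Ier2* senescent replicate 3 (7.10 CPM) lies below all 3 controls.

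The depth was 50288454 to 61747564 counts per control library and 53792998 to 82229553 per senescent library. One library, senescent replicate 3, stood apart. Squared differences in gene counts had a median of 18.5 and 24.6 times the value of sampling noise for its pairs with replicates 1 and 2, against 2.24 times for the pair of replicates 1 and 2 and 1.77 to 5.33 times between controls. It was the lowest senescent library for 8 of the 10 genes and for 42.1% of all tested genes, so values with and without it are given where it matters. The labels were checked on known genes. *Cdkn1a*, which encodes the cell cycle inhibitor p21, rose from 123 ± 2.01 to 619.5 ± 16.3 CPM, and *Lmnb1*, which encodes lamin B1, fell from 79.4 ± 1.85 to 6.76 ± 0.285 CPM (n = 3 each, SD). *Cdkn2a* rose by 1.90 on the log2 scale, and the proliferation gene *Mki67* fell by 5.94. *Glb1*, the gene of the lysosomal beta-galactosidase used to stain senescent cells, was slightly lower in senescent cells (74.4 ± 0.554 and 65.4 ± 4.03 CPM, edgeR adjusted p = 0.0257). All 10 markers of fibroblasts were tested, and their summed level was 19178 to 21251 CPM in control and 7384 to 8685 CPM in senescent libraries, a sum made up mostly of collagens and *Vim*. Of the 10, 6 were lower, among them *Col1a1* (4435 and 763 CPM), *Col1a2* and *Col3a1*, 3 were higher and 1 (*Pdgfrb*) was not called. The higher ones were *Dcn* (56.6 ± 0.377 to 643 ± 65.2 CPM), *Thy1* and *Lum*, with log2 fold changes of 3.50, 1.47 and 0.85. The 7 markers of chondrocytes, led by *Col2a1* and *Acan*, were all lower in senescent cells (summed, 6715 to 7218 CPM against 595 to 680 CPM). Summed markers of macrophages (5.71 to 6.46 CPM and 14.1 to 16.6 CPM), endothelium (4.69 to 6.28 CPM and 9.61 to 9.81 CPM) and keratinocytes (16.5 to 17.1 CPM and 16.4 to 17.4 CPM) were far below those of fibroblasts in both groups, as were those of skeletal muscle (15.6 to 20.9 CPM and 15.1 to 27.8 CPM) and of Schwann cells and melanocytes (52.3 to 57.2 CPM and 46.8 to 51.9 CPM), with *Myf5*, *Tyr* and *Dct* never above 3 counts. The numbers of markers called are to be read beside the 36.2% of all tested genes called higher and the 34.1% called lower. All 5 tested macrophage markers were called higher, and of 6 tested endothelial markers 5 were higher and 1 lower. Among those called higher, *Itgam*, *Cdh5* and *Vwf* had at most 39, 41 and 51 counts in any library. Of 5 tested keratinocyte markers, 2 were higher, among them *Dsp* (0.110 to 7.09 CPM), 1 was lower (*Trp63*, 13.1 to 4.17 CPM) and 2 were not called. Of 5 tested Schwann cell and melanocyte markers, 1 was higher and 3 lower, and of 2 tested muscle markers 1 was higher. The part of these shifts in the results below was not tested.

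*Egr1* (ENSMUSG00000038418, chromosome 18 of mm10 from 34859823 to 34864984) encodes the founding member of its family, which binds GC-rich promoters and is a standard readout of ERK signaling. Its level was 40.6, 40.4 and 42.0 CPM in control replicates 1, 2 and 3 and 94.9, 102 and 86.1 CPM in senescent replicates 1, 2 and 3. The control libraries were nearly equal, and each senescent library held at least 2.10 times their mean. The mean rose from 41.0 ± 0.845 to 94.5 ± 8.14 CPM (SD, n = 3 per group), 2.30-fold with a 95% interval of 2.05 to 2.60 (edgeR, adjusted p = 3.58e-06).

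*Egr2* (ENSMUSG00000037868, chromosome 10 from 67535475 to 67542188) encodes a factor best known from the myelination of nerves by Schwann cells. It had far fewer reads than *Egr1*, at 1.86, 1.89 and 1.94 CPM in the control and 7.25, 7.36 and 6.59 CPM in the senescent libraries. The increase was 3.72-fold (95% interval 3.17 to 4.35, edgeR adjusted p = 1.25e-06), the highest fold of the 3 EGR genes, though within the interval of *Egr3*. *Egr3* (ENSMUSG00000033730, chromosome 14 from 70077445 to 70080157) encodes a relative with roles in lymphocytes and muscle spindles. Its control libraries had 20, 42 and 41 counts and its senescent libraries 98, 159 and 95 counts, or 0.401, 0.703 and 0.838 CPM against 1.77, 2.01 and 1.13 CPM. The groups did not overlap, but the spread was wide, with an SD of 34.6% of the mean in control cells, of which counting error alone would give about 17.1%. *Egr3* rose 2.50-fold with a 95% interval of 1.52 to 4.11 (edgeR adjusted p = 0.00538). Its log2 fold change was 1.32 with all libraries and 1.55 without senescent replicate 3. The authors counted reads over 1416 bases of *Egr3* exon, while the longest coding transcript of the GENCODE M21 annotation has 3940 bases, so reads in the remaining sequence may not be in these values.

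Per base of counted exon, *Egr1* made up nearly the whole family in both groups. Its share of the summed RPKM (CPM per kilobase of exon) of the 3 genes was 90.0% ± 1.38 in control and 86.7% ± 0.707 in senescent cells, and that of *Egr2* rose from 5.50% ± 0.0650 to 8.58% ± 0.336 (SD, n = 3 per group). Neither pair of groups overlapped, and the exact two-sided permutation p was 0.1 for both, the smallest that 3 samples against 3 can give. The control SD of the *Egr2* share understates its error. In CPM the *Egr2* control libraries had an SD of 2.1% of the mean, where counting error alone would give about 9.98%. The share of *Egr3* was 4.47% ± 1.43 and 4.69% ± 0.935, with overlapping values (exact permutation p = 0.8).

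A match to the CArG box, the sequence bound by SRF, lay before a start site of *Egr2*. RefSeq promoter sequences (build GRCm38.p6, from 250 bases before to 50 bases after each start) were at hand for 7 of the 10 genes, in 11 windows of which 5 belong to *Egr2* and partly overlap; *Egr1*, *Egr3* and *Ier2* were without one. Of all 32851 windows, 1.63% hold a CArG box on either strand. Among the 7 genes, *Egr2* and *Srf* held such a box, in 5 of the 11 windows. *Egr2* had 2 different boxes, CCTTTTTTGG before the start at position 67537566 and CCATATATGG before the 3 later starts. The bases before the *Egr2* start at position 67537869 (chr10:67537619-67537868, plus strand, inside the intron of longer *Egr2* transcripts) are shown because they hold it together with CREB core sites (TGACG or, on the other strand, CGTCA). Capitals mark the CArG box, at positions -72 to -63 from the start, and the core sites.
Egr2: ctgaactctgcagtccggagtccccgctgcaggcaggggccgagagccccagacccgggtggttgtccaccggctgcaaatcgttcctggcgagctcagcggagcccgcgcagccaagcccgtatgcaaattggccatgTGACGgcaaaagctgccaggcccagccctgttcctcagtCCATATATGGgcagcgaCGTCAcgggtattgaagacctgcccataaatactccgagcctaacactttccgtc

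*Nr4a1* (ENSMUSG00000023034, chromosome 15 from 101266846 to 101274792), also known as Nur77, encodes an orphan nuclear receptor induced by antigen, growth factors and cyclic AMP. Its level was 7.90, 9.14 and 8.75 CPM in the control libraries and 24.8, 26.1 and 17.0 CPM in the senescent libraries. Senescent replicate 3 was clearly lower than the other two and still 1.98 times the control mean. The increase was 2.63-fold (95% interval 2.02 to 3.42, edgeR adjusted p = 0.000138). On the log2 scale it was 1.39 with all libraries and 1.57 without senescent replicate 3.

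*Nr4a2* (ENSMUSG00000026826, chromosome 2 from 57106830 to 57124003), or Nurr1, is needed for dopamine neurons and is induced by the same signals in fibroblasts. It was at 9.70, 10.8 and 10.3 CPM in control and 28.5, 26.4 and 28.3 CPM in senescent libraries, without the dip in senescent replicate 3. The fold was 2.70 (95% interval 2.39 to 3.06, edgeR adjusted p = 1.41e-06), close to that of *Nr4a1*.

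*Nr4a3* (ENSMUSG00000028341, chromosome 4 from 48045153 to 48086447), or NOR1, was the least abundant of the 10 genes per base of exon and changed most. The control libraries held 28, 29 and 22 counts and the senescent libraries 241, 334 and 444 counts. These correspond to 0.561, 0.485 and 0.450 CPM in control and 4.35, 4.21 and 5.26 CPM in senescent cells. Here senescent replicate 3 was the highest library. The mean rose from 0.499 ± 0.0571 to 4.61 ± 0.569 CPM (SD, n = 3 per group), 9.23-fold with a 95% interval of 7.15 to 11.9 (edgeR adjusted p = 1.08e-06), and its signed log2 fold change was above that of 94.7% of all tested genes. The control SD understates the error, as it was 11.4% of the mean where counting error alone would give about 19.5%.

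The makeup of the NR4A family moved with *Nr4a3*. Its share of the summed RPKM of the 3 genes rose from 1.38% ± 0.237 to 4.67% ± 1.12 (SD, n = 3 per group) without overlap (exact permutation p = 0.1, the smallest possible). It reached at most 5.97% in any library, so *Nr4a1* and *Nr4a2* made up the rest of the family throughout. The share of *Nr4a1* was 57.1% ± 0.738 and 54.1% ± 6.61 (exact permutation p = 0.8), and in senescent replicate 3 it was 46.7%, below the 47.3% of *Nr4a2*. In the other 5 libraries *Nr4a1* held the larger share.

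**Figure D2:**
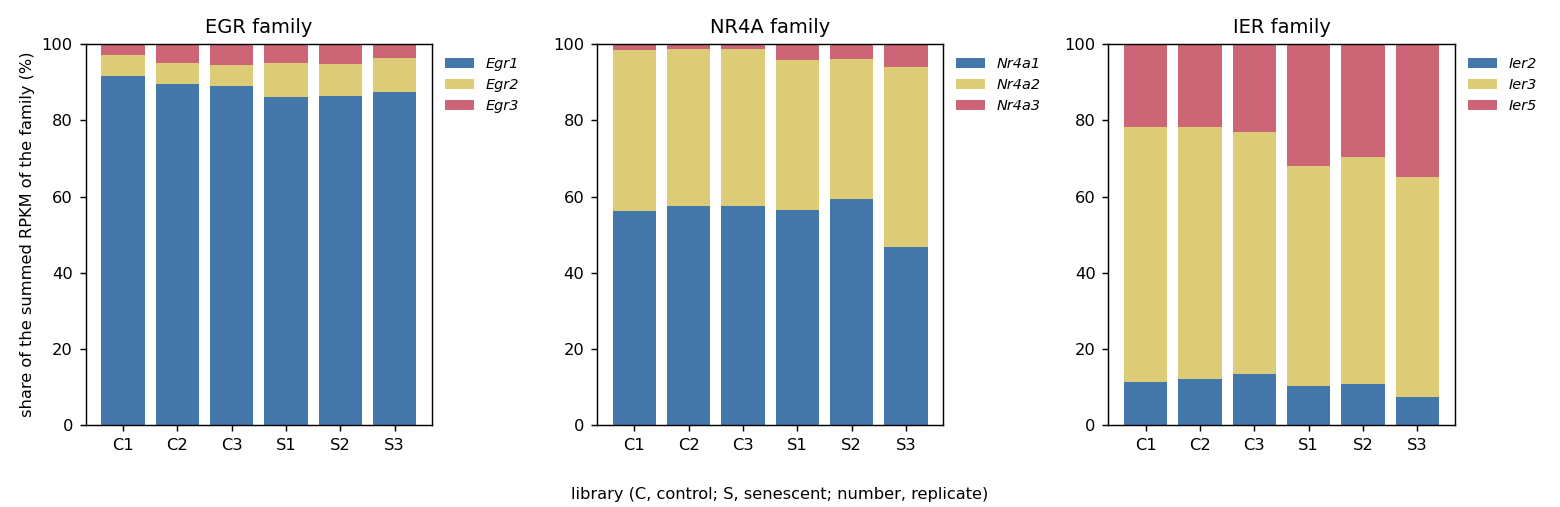
Share of each gene in the summed RPKM of its family, in percent, for each of the 6 libraries (C, control, S, senescent, with the replicate number). *Egr1* holds at least 86.2% of the EGR family in all libraries, the share of *Nr4a3* is 1.22% to 1.65% in control and 3.96% to 5.97% in senescent libraries, and that of *Ier5* is higher in all senescent libraries.

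The start regions of all 3 NR4A genes held several CREB core sites. A CREB core site stood in 20.8% of all windows and in 7 of the 11 windows of these genes, which belong to 5 of the 7 genes. The core holds a CG pair, and the windows of *Nr4a1*, *Nr4a2* and *Nr4a3* were 72.3%, 81.7% and 64.7% G or C. The median over all windows was 52.7%, and the shares were not adjusted for this. The CArG box was not found in the NR4A windows. The sequences are shown with the core sites in capitals, for *Nr4a1* (chr15:101266596-101266845, plus strand, 4 core sites) and *Nr4a2* (chr2:57124004-57124253, minus strand, 4 core sites) the 250 bases before the start, and for *Nr4a3* (chr4:48045055-48045152, plus strand, 3 core sites) the 98 bases before the first annotated exon. The *Nr4a1* stretch, like that of *Egr2*, lies in an intron of a longer transcript of the gene.
Nr4a1: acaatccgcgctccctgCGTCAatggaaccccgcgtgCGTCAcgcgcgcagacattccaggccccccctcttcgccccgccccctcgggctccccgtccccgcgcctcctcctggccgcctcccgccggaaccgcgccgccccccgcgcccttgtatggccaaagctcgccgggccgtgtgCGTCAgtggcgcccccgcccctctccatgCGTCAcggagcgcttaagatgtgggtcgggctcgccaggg
Nr4a2: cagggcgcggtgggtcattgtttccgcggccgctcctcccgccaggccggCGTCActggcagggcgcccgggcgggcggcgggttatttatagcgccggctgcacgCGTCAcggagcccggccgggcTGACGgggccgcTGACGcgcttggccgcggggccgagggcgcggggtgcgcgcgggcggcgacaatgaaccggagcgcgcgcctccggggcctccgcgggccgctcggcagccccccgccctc
Nr4a3: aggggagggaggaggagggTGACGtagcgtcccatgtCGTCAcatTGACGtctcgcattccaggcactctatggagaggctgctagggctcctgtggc

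Of the IER genes, *Ier5* doubled, *Ier3* rose less and *Ier2* did not pass the test. *Ier5* (ENSMUSG00000056708, chromosome 1 from 155096361 to 155099636) encodes a partner of the heat shock factor HSF1 and of a protein phosphatase. It was at 31.4, 34.2 and 35.0 CPM in control and 74.4, 75.3 and 72.0 CPM in senescent libraries. Relative to their mean, these were the tightest senescent values of the 10 genes, and the fold was 2.21 (95% interval 1.99 to 2.44, edgeR adjusted p = 1.94e-06).

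*Ier3* (ENSMUSG00000003541, chromosome 17 from 35821684 to 35822923), also called IEX-1, encodes a stress-induced protein with a role in cell survival. Its control libraries were at 33.4, 36.1 and 33.1 CPM and its senescent libraries at 46.0, 52.2 and 40.9 CPM. The groups did not overlap, and the gene rose 1.36-fold (95% interval 1.16 to 1.58, edgeR adjusted p = 0.00375), less than the limit of the study's methods. *Flot1* lies 307 bases beyond its end in the table of genes, without overlap.

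*Ier2* (ENSMUSG00000053560, chromosome 8 from 84661331 to 84662852) encodes a nuclear protein that takes part in growth factor responses. It was at 7.64, 8.92 and 9.56 CPM in control and 11.3, 12.8 and 7.10 CPM in senescent libraries. Senescent replicates 1 and 2 lay above all controls and senescent replicate 3 below all of them. The fold was 1.19 with a 95% interval of 0.851 to 1.67 (edgeR adjusted p = 0.307), an interval that holds both a decrease and an increase. Without senescent replicate 3, *Ier2* was higher in senescent cells, with a log2 fold change of 0.48 (edgeR adjusted p = 0.00026), and all 10 genes were then called higher.

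Within the IER family, *Ier3* was the most abundant per base of exon in both groups, and its share of the summed RPKM went from 65.5% ± 1.90 to 58.2% ± 1.14. The share of *Ier5* went from 22.2% ± 0.817 to 32.2% ± 2.68 and that of *Ier2* from 12.4% ± 1.12 to 9.58% ± 1.88 (SD, n = 3 per group). In none of the 3 did the groups overlap (exact permutation p = 0.1 each, the smallest possible). The senescent share of *Ier2* minus its control share was -2.79 percentage points, and -1.71 without senescent replicate 3.

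*Srf* (ENSMUSG00000015605, chromosome 17 from 46546839 to 46556162) encodes the serum response factor, which acts on many immediate early genes and is one itself. The control libraries were at 34.5, 38.0 and 38.4 CPM and the senescent libraries at 53.7, 55.6 and 39.1 CPM. Senescent replicate 3 was only just above the highest control library. The fold was 1.34 (95% interval 1.08 to 1.65, edgeR adjusted p = 0.0215). This call was lost when any 1 of the 5 other libraries was left out, with adjusted p from 0.0515 to 0.0790 (edgeR) and log2 fold changes from 0.33 to 0.44, and it was kept, with a log2 fold change of 0.57, without senescent replicate 3. A long noncoding gene, *Gm26904*, overlaps *Srf* in position and had 0 counts in all 6 libraries. *Cul9* lies 451 bases from *Srf*, without overlap.

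The start region of *Srf* held a pair of CArG boxes, at positions -82 to -73 and -62 to -53, and 1 CREB core site. It is shown (chr17:46556163-46556412, minus strand, the 250 bases before the start, of which 13 are annotated as *Srf* exon) with these in capitals.
Srf: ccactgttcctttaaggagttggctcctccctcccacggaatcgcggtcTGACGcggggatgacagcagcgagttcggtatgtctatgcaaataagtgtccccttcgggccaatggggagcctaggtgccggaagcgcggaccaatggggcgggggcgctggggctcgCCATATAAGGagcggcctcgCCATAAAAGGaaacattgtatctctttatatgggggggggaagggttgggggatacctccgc

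Other motifs were searched on both strands of the same windows. The EGR core GCGTGGG, the NR4A site AAGGTCA and the AP-1 site TGACTCA were in none of the 11 windows of these genes, and in 5.04%, 4.72% and 5.2% of all windows. The E-box CACGTG, the site bound by BMAL1 with CLOCK, stood in 1 window, before the first start of *Egr2*, and in 7.15% of all windows. The SP1 site GGGCGG was in 8 of the 11 windows, at least 1 for each of the 7 genes, and in 35.7% of all windows. TATAAA was in 2 of the 11 windows, those of *Nr4a2* and *Srf*, and in 13.6% of all windows. A missing match says only that these letters are not in the window.

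**Figure D3:**
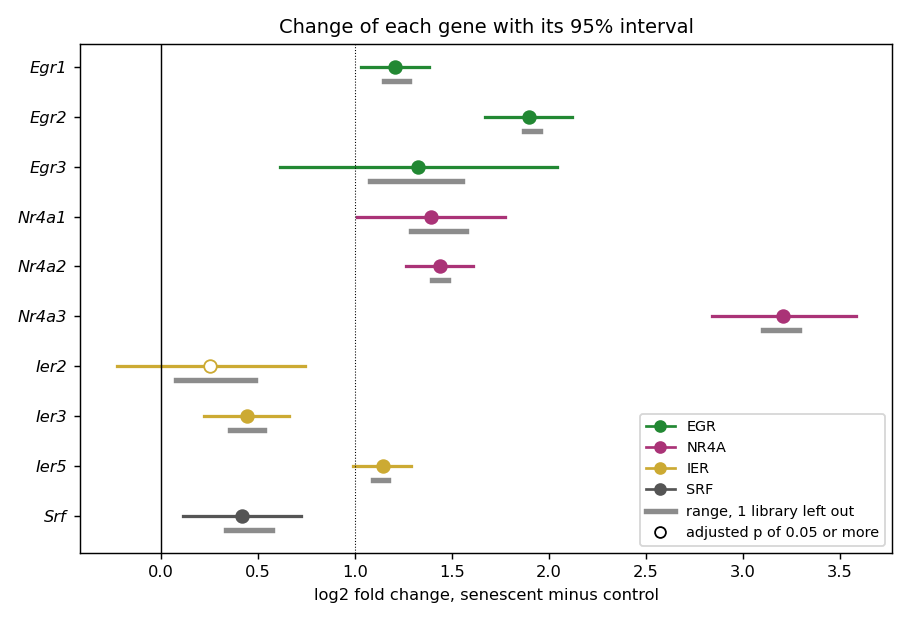
Log2 fold change of each gene, senescent minus control, with its 95% interval from the edgeR fit, and beneath it in grey the range when each library is left out in turn. The dotted line marks a doubling and the open symbol a gene that did not pass an adjusted p of 0.05. *Nr4a3* stands at 3.21, the intervals of *Egr1*, *Egr2* and the 3 NR4A genes lie above 1, and only that of *Ier2* includes 0.

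The order of the genes by level changed little. By mean RPKM in control cells it ran *Ier3* (30.2 ± 1.44), *Ier5* (10.2 ± 0.585), *Egr1* (9.14 ± 0.188), *Srf* (9.04 ± 0.529), *Ier2* (5.72 ± 0.644), *Nr4a1* (3.47 ± 0.256), *Nr4a2* (2.52 ± 0.130), *Egr2* (0.559 ± 0.0115), *Egr3* (0.457 ± 0.158) and *Nr4a3* (0.0833 ± 0.00954) (SD, n = 3). The values of *Egr1* and *Srf* overlapped, as did those of *Egr2* and *Egr3*, and all other neighbours were apart. In senescent cells *Ier3* was still highest at 41.0 ± 4.98 RPKM, followed by *Ier5* at 22.6 ± 0.517 and *Egr1* at 21.1 ± 1.82, whose values overlapped. *Ier2* was passed by *Nr4a1* and *Nr4a2*, and *Srf*, *Nr4a1*, *Nr4a2* and *Ier2* each overlapped with the next, at means from 12.1 to 6.83 RPKM. *Nr4a3* remained the lowest at 0.770 ± 0.0951 RPKM, now overlapping with *Egr3*. Summed over each family, RPKM rose 2.39-fold for EGR, 2.75-fold for NR4A and 1.52-fold for IER, with no overlap between the groups (exact permutation p = 0.1 each, the smallest possible).

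Most of the genes are short, and the NR4A genes and *Srf* differ from the rest in exon number. The median span of the 10 was 5938 bases and their longest coding transcript in GENCODE M21 had a median of 2 exons, against 24096 bases and 9 exons over 14378 tested genes with such a transcript. *Ier2* and *Ier5* have 1 exon, the NR4A genes have 8 and *Srf* has 7, and *Nr4a3*, with a span of 41295 bases, is longer than the median gene. The pentamer ATTTA, the core of AU-rich elements that mark RNA for decay, occurred in the 3′ untranslated part of 9 of the 10 genes and of 68.9% of all. *Ier3* had 8.12 and *Nr4a1* 5.49 copies per kilobase, where the median gene had 1.43, and *Ier2* had none.

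Other immediate early genes gave a wider picture. In a list of 40, all were tested, 31 were higher and 4 lower by the same edgeR test, and the median log2 fold change was 0.97. Over all tested genes, 36.2% were called higher and 34.1% lower. Among the largest called changes at a mean of at least 100 counts were *Maff* (6.10 ± 0.500 to 126 ± 3.70 CPM) and *Atf3* (0.694 ± 0.0445 to 10.1 ± 0.454 CPM), which encode bZIP factors, *Dusp4* (1.57 ± 0.0682 to 21.9 ± 1.58 CPM), which encodes an ERK phosphatase, and *Ptgs2* (107 ± 4.84 to 1078 ± 150.4 CPM), which encodes cyclooxygenase-2 (n = 3 each, SD). The 4 lower genes, named after their values had been seen, were *Fos* (9.70 ± 0.322 to 5.56 ± 0.609 CPM), *Jund*, *Klf2* and *Ier5l*, with log2 fold changes of -0.80, -0.75, -2.28 and -0.66. *Fos*, the classical companion of *Egr1* in serum responses, thus went the other way from the 3 EGR genes. The genes that passed in neither direction were *Junb*, *Zfp36*, *Gadd45b*, *Gadd45g* and *Rhob*, also named after their values had been seen.

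Of 5 tested genes for partners of EGR and NR4A proteins, 4 were lower in senescent cells and 1 was higher, where 34.1% of all tested genes were called lower and 36.2% higher. *Nab1*, which encodes a corepressor that binds EGR proteins, fell from 84.8 ± 3.01 to 74.4 ± 5.51 CPM, and *Nab2*, which encodes its relative, from 74.5 ± 4.42 to 50.5 ± 9.40 CPM (n = 3 each, SD). *Rxra* and *Rxrb*, which encode partners of NR4A1 and NR4A2, fell from 154 ± 9.49 to 77.0 ± 11.4 CPM and from 50.4 ± 5.74 to 29.1 ± 6.62 CPM. The gene called higher, *Rxrg*, had at most 39 counts in any library. *Egr4*, the remaining EGR gene, had at most 16 counts in any library, too few for the test. Of 6 genes for SRF cofactors, *Elk3* and *Myocd* were higher and *Elk1* and *Mkl1* lower, with log2 fold changes of 0.33, 1.38, -0.39 and -0.47, and *Elk4* and *Mkl2* did not pass. With 4 of the 6 called, this list was near the 70.3% of all tested genes called in either direction. *Myocd* had at most 26 counts in any library. Without control replicate 3, 2 of the 6 were called.

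Genes known as targets of EGR1 and of SRF with MRTF were read against the 70.3% of all tested genes that were called, 36.2% higher and 34.1% lower. Of 13 EGR1 targets, 10 were higher and 3 lower, with a median log2 fold change of 0.95. *Flt1*, which encodes a VEGF receptor, rose from 0.229 ± 0.0301 to 7.19 ± 0.505 CPM, the growth factor genes *Pdgfb* and *Fgf2* from 0.407 ± 0.0455 to 6.62 ± 1.59 CPM and from 12.8 ± 0.915 to 140.9 ± 7.76 CPM, and *Cd44*, which encodes the hyaluronan receptor, by 1.94 on the log2 scale (CPM as mean ± SD, n = 3 each), while *Mmp14* and *Nab2*, named after their values had been seen, were among the lower. Of 23 cytoskeletal targets of SRF and MRTF, 13 were higher, 2 (*Actg2* and *Tpm2*) lower and 8 not called, with a median of 0.47. The 15 called genes were no larger a share of their list than called genes were of all tested genes. The largest called changes were in *Fhl1*, *Lmod1*, *Fhl2* and *Cald1*, by 2.51, 1.84, 1.41 and 0.75 on the log2 scale, while *Acta2*, the smooth muscle actin gene, had means of 1171 ± 32.8 and 1172 ± 122 CPM.

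**Figure D4:**
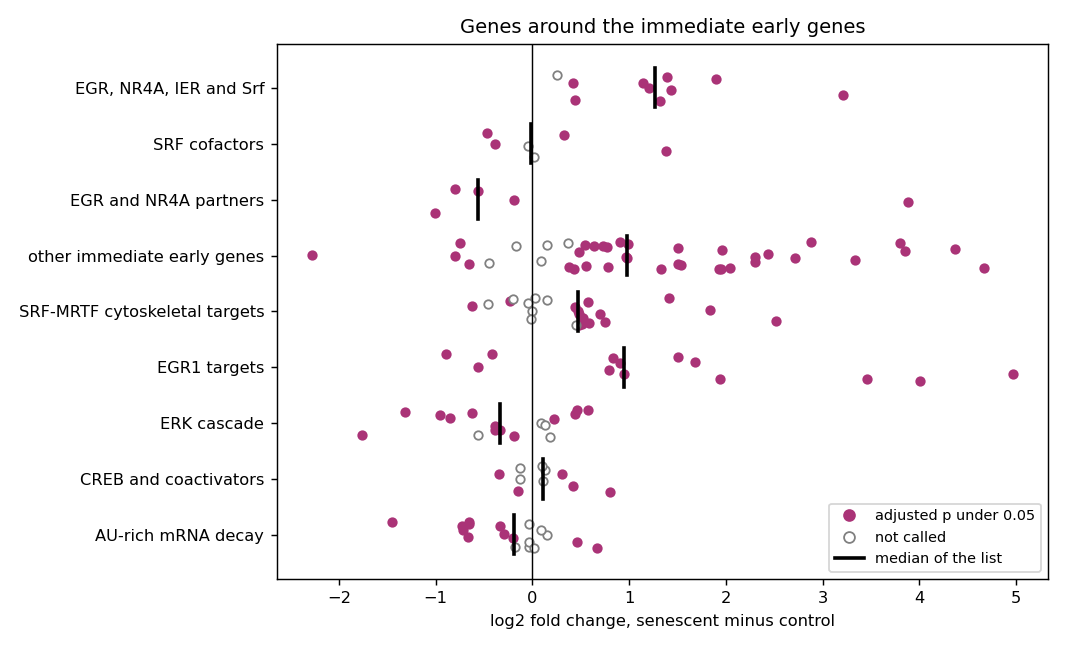
Log2 fold change, senescent minus control, of the 10 genes and of the tested genes in 8 related lists. Filled points were called by edgeR (adjusted p under 0.05), open points were not, and black bars give the median of each list. The median is 1.26 for the 10 genes, 0.97 for other immediate early genes and -0.56 for the partners of EGR and NR4A.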

How the data were processed

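The deposited values are raw counts per gene. The authors aligned paired reads to mm10 (MAPRSeq with STAR) and quantified genes by Subread, as counts and as RPKM, of which the counts were used here. The strand setting and the handling of multi-mapping reads are not given in the sources used here. The exon length of each gene, also deposited, was used for RPKM.

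Of 43346 genes, 17589 passed filterByExpr. Counts were normalized by TMM factors, and senescent and control samples were compared in a robust quasi-likelihood fit (edgeR 4.0.16, R 4.3.3), two-sided, with group as the only term and Benjamini-Hochberg adjustment. Levels are TMM-scaled CPM. Intervals of 95% come from the standard error of the fit, and family shares were compared by exact permutation. On simulated data with 200 changed genes among 17216 tested, 193 were recovered with 16 false calls. This number is not split by the size of the change. In the 6 libraries of the study 70.3% of tested genes were called, and recovery at such a share was not tested. Alternatives were RLE scaling, library size alone, no filter, a minimum of 10 counts per library, the exact test of edgeR, DESeq2 (version 1.42.0), a replicate term and leaving out each library.

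The 10 genes and the lists were chosen with earlier results of these data known. Named from each list were up to 4 called genes with the largest change at a mean of 100 counts or more, and any other name was picked with its values known. The values of 1 listed gene are not reported here. Every pair of replicates differed by more than sampling noise. Transcript structure came from GENCODE M21 (GRCm38, the assembly of mm10). Reads carried no molecular identifiers, so counting error is a lower limit of the error.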

Additional observations from a re-analysis of the deposited data

How the results depend on the processing

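Of 130 refits of the 10 genes under 13 alternatives, 124 kept the direction and the side of the threshold, 5 lost a call (all *Srf*, each with 1 library left out), 1 gained one (*Ier2* without senescent replicate 3) and none reversed. With 1 library left out, the number of genes called higher ranged from 8 to 10, the log2 fold change of *Srf* from 0.33 to 0.57 and that of *Ier2* from 0.078 to 0.481. With at least 10 counts in every library, 2 SRF cofactors and 3 EGR and NR4A partners were called in place of 4 and 5. With 1 library left out, 2 to 4 SRF cofactors and 3 to 7 CREB genes were called. Without a correction for length, the senescent share minus the control share was 2.50 percentage points for *Egr2*, 5.87 for *Nr4a3*, -9.36 for *Ier3* and 12.9 for *Ier5*, with the directions given above.

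Replicate numbers gave no sign of pairing. Correlations of deviations from the group means were -0.145, 0.135 and -0.120 for like numbers 1, 2 and 3, and ran from -0.214 to 0.261 for unlike numbers. With 3 libraries per group, these values cannot exclude pairing. With a replicate block, 9 of the 10 genes were called higher, and over all genes 5964 were called higher and 5660 lower, against 6360 and 6005. Counts by the threshold of the study's methods over all genes depended on the filter, with 3134 higher and 2166 lower in the main setting, 5194 and 2567 without a filter, and 1724 and 1759 with at least 10 counts in every library. Counting error limits *Egr3* and *Nr4a3* in control cells, where no library exceeded 42 counts.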

Other observations

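Genes of 3 pathways around the immediate early genes were counted beside the 70.3% of all tested genes that were called, 36.2% higher and 34.1% lower. Of 17 genes of the ERK cascade, 4 were higher, 9 lower and 4 not called (edgeR, adjusted p under 0.05), with a median log2 fold change of -0.34. The largest called changes were in *Rps6ka1* and *Rps6ka5*, which encode kinases downstream of ERK, *Mknk2* and *Mapk3*, the gene of ERK1, with log2 fold changes of -1.76, -1.32, -0.95 and -0.86. *Mapk3* fell from 197 ± 6.60 to 109 ± 12.8 CPM (n = 3 each, SD). Of 10 genes for CREB and its coactivators, 3 were higher, 2 lower and 5 not called, with *Crem* at 8.47 ± 0.547 and 14.8 ± 1.47 CPM, *Crtc3* and *Prkacb* also higher and *Prkaca* lower. Only 3 of the 10 were called without control replicate 1 or 2 or senescent replicate 1 or 2. Of 18 genes for AU-rich RNA decay, 2 were higher, 9 lower and 7 not called, and the median log2 fold change was -0.19. *Pan2*, which encodes a deadenylase subunit, fell from 35.6 ± 0.255 to 13.0 ± 0.748 CPM, and *Zfp36l1* and *Cnot3* had log2 fold changes of -0.73 and -0.72, while *Zfp36l2* had one of 0.67.

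Among 12958 tested genes (mean count 100 or more), those whose log2 levels followed a gene most closely over the 6 libraries were *Igfbp7*, *BC003965* and *Plcg2* for *Egr1*, *Tanc1*, *Nop2* and *Foxs1* for *Nr4a1*, *Clint1*, *Tiam1* and *Bcorl1* for *Ier3*, and *Tmem184b*, *Eif6* and *Nhp2* for *Srf*. The measure was Pearson's correlation of log2(CPM + 0.5), which was at least 0.991 for each of these genes. It is a description over 6 libraries that fall into 2 groups and differ in depth, and any gene that differs between the groups can score high on it.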
